A study of Mus musculus with 3 samples.

Results

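Stromal growth factors and their receptors were followed in 3 LLC/luc cell lines through 10 genes. These were the heparin-binding ligand genes Ptn and Mdk, the FGF ligand genes Fgf10, Fgf7 and Fgf2, Hgf, the PDGF receptor genes Pdgfra and Pdgfrb, and the neuropilin genes Nrp1 and Nrp2. The genes were taken by symbol, with every probe that the platform annotation pairs with one of them, and the set was selected on intensity ratios between these lines, so its ratios are given as a description. They are 10 of 19057 genes with a named probe, and 26 of the 45281 probes on the array. LLC is the Lewis lung carcinoma line of C57BL/6 mice, and LLC/luc cells carry a luciferase gene. The groups were LLC/luc BM 2nd cells, the second generation of in vivo selection, LLC/luc BM 1st cells, the first generation, and the parental LLC/luc line. Parental cells were injected into the left ventricle and BM 1st cells were grown out of a bone lesion, and BM 2nd cells came from the marrow of another mouse that had received BM 1st cells by the same route. The cell type label calls all 3 lines osteotropic, the parental line included. Each line stands for 1 cultured population hybridised once, no sort of tumour cells away from host cells is given in the sources used here, and in RNA of a whole culture more cells of a type and more RNA per cell cannot be told apart.

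Pleiotrophin, the product of Ptn, and midkine, the product of Mdk, form a small family of secreted heparin-binding growth factors that act through the receptor phosphatase encoded by Ptprz1, the kinase encoded by Alk and cell-surface syndecans. Fibroblast growth factors bind heparan sulphate and FGF receptor kinases, and the ligands of Fgf7 and Fgf10 are made by mesenchyme and act on the epithelial form of the receptor encoded by Fgfr2. Hepatocyte growth factor is a stromal ligand of the receptor kinase encoded by Met. The receptors of Pdgfra and Pdgfrb mark mesenchymal cells and pericytes, and neuropilins are co-receptors for class 3 semaphorins and for vascular endothelial growth factors.

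Expression was read as a linear probe intensity on an Illumina bead array, with 1 array per line and 3 arrays in all. There were no replicates, so the values below carry neither a replicate error nor a p-value, and precision is limited by the number of arrays. The background level of an array was the 95th percentile over its 1501 olfactory and vomeronasal receptor probes, 109 (parental), 110 (BM 1st) and 107 (BM 2nd). A gene was read from its brightest probe. Pairs of lines were compared for genes detected over background in either line or both, and a log2 ratio past 1 or -1 counted as a call. The log2 ratios of the receptor probes had an SD of 0.12 in each of the 3 comparisons. This is the scatter of dim probes and holds no spread between cultures. Background remained in the intensities, so ratios of dim probes understate the difference in RNA. Of the 26 probes, 13 lay above background on at least 1 array and 13 on none. Of the 10 genes, Ptn, Mdk, Fgf10, Fgf7, Pdgfra, Nrp1 and Nrp2 had such a probe, and Fgf2, Hgf and Pdgfrb had none.

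The 250 bases before the RefSeq start of 4 genes are printed because their brightest probes took 4 different courses across the lines. Ptn increased at each step, and Fgf10 had gained the larger part of its difference by the BM 1st stage. Fgf7 was lowest in BM 1st cells and Nrp2 was highest there. The sequences are from RefSeq on GRCm38.p6 and read 5′ to 3′ on the gene's strand. Capitals mark GC boxes (GGGCGG, or CCGCCC on the other strand) and CCAAT boxes (CCAAT, or ATTGG on the other strand). Ptn lies on the minus strand (chr6:36810180-36810429), and Fgf10 (chr13:118714449-118714698), Fgf7 (chr2:126034408-126034657) and Nrp2 (chr1:62703067-62703316) on the plus strand.
Ptn: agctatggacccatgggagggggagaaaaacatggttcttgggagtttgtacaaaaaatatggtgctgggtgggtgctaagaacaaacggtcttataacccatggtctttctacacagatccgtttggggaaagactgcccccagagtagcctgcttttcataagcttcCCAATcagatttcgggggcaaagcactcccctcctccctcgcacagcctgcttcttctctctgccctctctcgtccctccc
Fgf10: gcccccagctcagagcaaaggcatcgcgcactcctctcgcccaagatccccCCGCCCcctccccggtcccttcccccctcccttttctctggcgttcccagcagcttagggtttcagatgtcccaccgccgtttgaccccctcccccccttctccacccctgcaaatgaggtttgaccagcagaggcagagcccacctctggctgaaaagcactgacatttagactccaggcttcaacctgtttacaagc
Fgf7: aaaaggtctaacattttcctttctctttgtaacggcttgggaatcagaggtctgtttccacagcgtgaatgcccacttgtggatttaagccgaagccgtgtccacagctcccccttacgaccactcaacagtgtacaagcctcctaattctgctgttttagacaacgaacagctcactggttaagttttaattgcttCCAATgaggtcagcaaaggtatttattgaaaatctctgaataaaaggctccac
Nrp2: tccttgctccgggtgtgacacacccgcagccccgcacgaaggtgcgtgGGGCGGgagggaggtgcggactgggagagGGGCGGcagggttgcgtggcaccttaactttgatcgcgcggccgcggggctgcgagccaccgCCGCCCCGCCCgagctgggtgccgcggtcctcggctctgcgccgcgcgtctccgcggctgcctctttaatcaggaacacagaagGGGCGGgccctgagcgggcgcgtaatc

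These windows differed in base composition. The Nrp2 window was 72.4% G and C with 32 CpG dinucleotides and 5 GC boxes, of which a pair overlaps by 1 base. The Fgf10 window was 61.2% G and C with 8 CpG and 1 GC box. The Ptn window was 52.0% G and C with 5 CpG and the Fgf7 window 43.6% with 6 CpG, and each held 1 CCAAT box and no GC box. Over all 32851 promoter windows of the same length the median was 52.4% G and C, 32.7% held a GC box and 33.8% a CCAAT box. TATA boxes (TATAAA, or TTTATA on the other strand) stood in 12.4% of all windows and AP-1 sites (TGANTCA, which reads the same on both strands) in 6.75%, and neither stood in a window of the 8 genes of the set that have one in the table. The windows of Fgf2, Pdgfra and Nrp1, and 1 window of Hgf, overlap the span that RefSeq gives to the gene and are not printed.

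Ptn had the highest ratio of the set in BM 2nd over parental cells and was the only one of the 10 genes called in all 3 comparisons. Its brightest probe had an intensity of 1243 (parental), 5201 (BM 1st) and 14580.2 (BM 2nd). The level was higher at each round of selection. The log2 ratio was 3.55 between BM 2nd and parental cells (11.7-fold), 2.07 between BM 1st and parental cells (4.19-fold) and 1.49 between BM 2nd and BM 1st cells (2.80-fold). In BM 1st cells 58.1% of the final log2 difference was present. The gene ranked 9 of 10576 genes from the highest ratio in BM 2nd against parental cells, 37 of 10370 in BM 1st against parental cells and 137 of 10551 in BM 2nd against BM 1st cells. The other Ptn probe stayed under background throughout, at 102 (parental), 86.3 (BM 1st) and 93.8 (BM 2nd), so the result rests on 1 probe. Averaging both probes put the log2 ratios at 1.72 for BM 2nd over parental, 0.91 for BM 1st over parental and 0.80 for BM 2nd over BM 1st, which ends the calls that involve BM 1st cells. Averaging only probes above background left the ratios of the brightest probe, 3.55, 2.07 and 1.49.

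Mdk, the other member of the pleiotrophin family, lay near background. Its brightest probe had an intensity of 124 (parental), 117 (BM 1st) and 106 (BM 2nd), and the BM 2nd value was under background. The log2 ratio (BM 2nd over parental) was -0.22, and the bound was 1.15-fold lower in BM 2nd cells. This bound takes no account of noise. Receptor probes reached an absolute log2 ratio of 0.34 in the same comparison, so no difference in Mdk is read from it. The other 3 Mdk probes were not above background on any array. With background subtracted the log2 ratio for BM 2nd over parental was -1.13, past the threshold, on a signal this close to background.

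**Figure D1:**
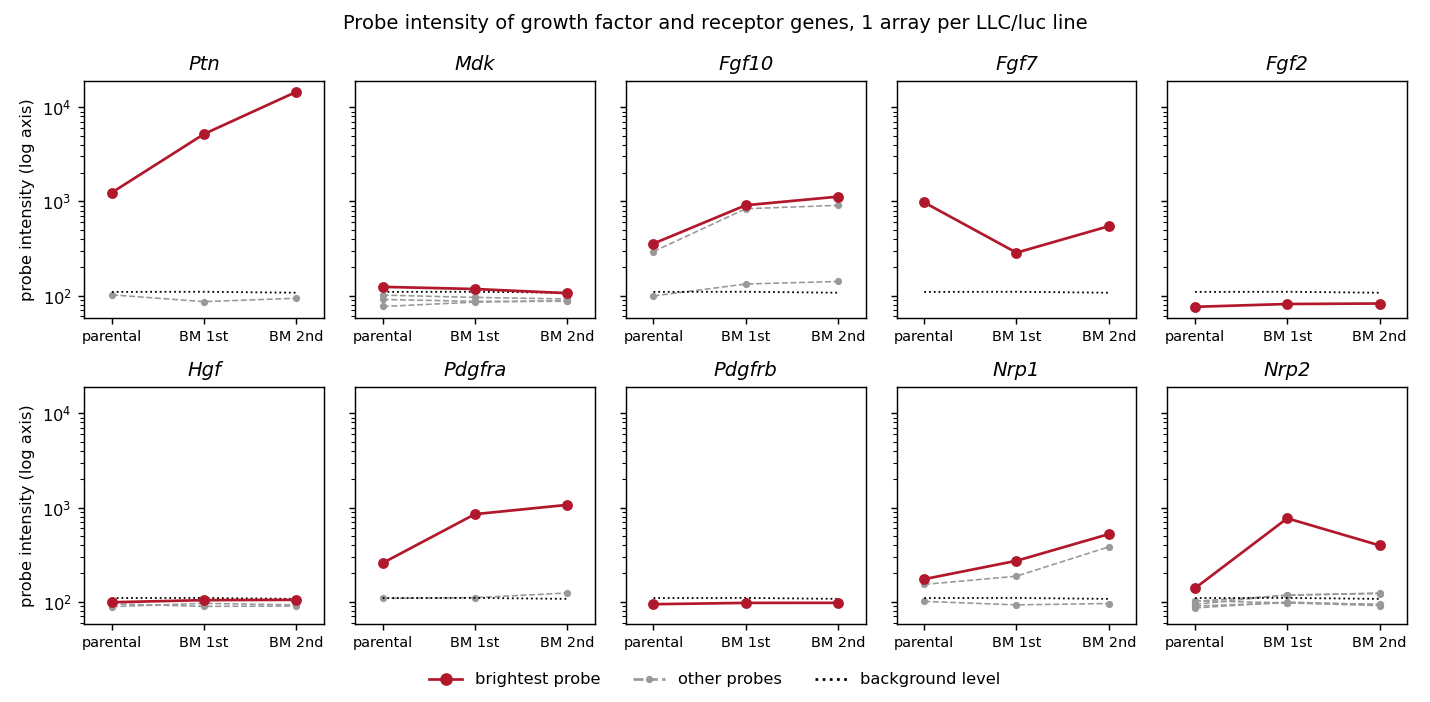
Probe intensity (vertical log axis) of the 10 genes in the parental line, BM 1st and BM 2nd (horizontal axis, 1 array per line), the brightest probe in red, other probes in grey and the background level of each array dotted. Ptn climbs at each step to 14580.2 in BM 2nd cells. BM 1st is the low point of Fgf7 and the high point of the brightest Nrp2 probe. Fgf2, Hgf and Pdgfrb stay under the dotted line.

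The FGF ligand genes did not move together. Fgf10, which encodes a mesenchymal ligand needed for lung and limb budding, had an intensity of 356 (parental), 910.45 (BM 1st) and 1123 (BM 2nd). Most of the difference was already present in BM 1st cells, 81.7% on the log2 scale. The log2 ratio was 1.66 in BM 2nd over parental cells (3.15-fold), 1.35 in BM 1st over parental cells (2.55-fold) and 0.30 in BM 2nd over BM 1st cells. A second Fgf10 probe read 294 (parental), 836 (BM 1st) and 908 (BM 2nd), with log2 ratios of 1.63 for BM 2nd over parental and 1.51 for BM 1st over parental. The third was dim, at 99.2 (parental), 133 (BM 1st) and 141 (BM 2nd), and ran in the same direction. All 3 Fgf10 probes lay above background in both selected lines, and 2 of them passed the threshold against parental cells in each.

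Fgf7, the gene of keratinocyte growth factor, ran the other way. Its single probe had an intensity of 975 (parental), 285 (BM 1st) and 545 (BM 2nd). Parental cells were highest and BM 1st cells lowest, with BM 2nd cells between them. The log2 ratio was -1.77 in BM 1st over parental cells, where the parental intensity was 3.41 times that of BM 1st cells and the gene ranked 39 of 10370 from the lowest ratio. It was -0.84 in BM 2nd over parental cells and 0.93 in BM 2nd over BM 1st cells, both short of the threshold. Fgf7 and Fgf10 encode close relatives that share a receptor, and in BM 1st cells they were called in opposite directions.

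Fgf2, the gene of basic fibroblast growth factor, was read by 1 probe that was not above background on any array, at 76.0 (parental), 81.4 (BM 1st) and 82.4 (BM 2nd). Hgf was read by 3 probes, none above background on any array, and its brightest gave 98.8 (parental), 104 (BM 1st) and 105 (BM 2nd). No fold is given for either gene. No array of cells known to express them shows whether these probes respond, so the values show that no signal was detected and do not measure absence.

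Of the PDGF receptor genes, Pdgfra was higher in both selected lines and Pdgfrb was not detected. Pdgfra, a receptor gene of mesenchymal cells, had an intensity of 258 (parental), 851 (BM 1st) and 1068 (BM 2nd). The step to BM 1st cells held 84.0% of its log2 difference, beside 81.7% for Fgf10. The log2 ratio was 2.05 in BM 2nd over parental cells (4.14-fold), 1.72 in BM 1st over parental cells (3.30-fold) and 0.33 in BM 2nd over BM 1st cells. The other Pdgfra probe was dim, at 109 (parental), 110.5 (BM 1st) and 124 (BM 2nd), with log2 ratios of 0.19 for BM 2nd over parental and 0.02 for BM 1st over parental. Averaged over both probes the log2 ratio was 1.12 in BM 2nd over parental cells and 0.87 in BM 1st over parental cells, which ends the call in BM 1st cells. Pdgfrb, the pericyte receptor gene, was not above background on any array, at 94.2 (parental), 97.2 (BM 1st) and 97.3 (BM 2nd).

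Both neuropilin genes were higher in BM 2nd than in parental cells, but their brightest probes had their peaks in different lines. Nrp1, which encodes a co-receptor of VEGF-A and Sema3A, had an intensity of 174 (parental), 272 (BM 1st) and 522 (BM 2nd). It increased at each step, and 40.8% of its log2 difference was present in BM 1st cells, the smallest share among the 5 genes called higher in BM 2nd cells. The log2 ratio was 1.59 in BM 2nd over parental cells, 0.65 in BM 1st over parental cells and 0.94 in BM 2nd over BM 1st cells. A second probe read 153 (parental), 187 (BM 1st) and 383 (BM 2nd), with a log2 ratio of 1.33 for BM 2nd over parental and 1.04 for BM 2nd over BM 1st, and the third was not above background on any array. With all 3 probes averaged the log2 ratio for BM 2nd over parental was 0.95, just short of the threshold. With only the probes above background averaged it was 1.46, and with background subtracted it was 2.41.

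Nrp2, which encodes a co-receptor of VEGF-C and Sema3F, had an intensity of 139 (parental), 769 (BM 1st) and 397 (BM 2nd). BM 1st cells were highest, and BM 2nd cells lay between them and parental cells. The log2 ratio was 2.47 in BM 1st over parental cells (5.52-fold), where Nrp2 ranked 20 of 10370 genes and above Ptn. It was 1.51 in BM 2nd over parental cells (2.85-fold) and -0.96 in BM 2nd over BM 1st cells, just short of the threshold. The gene has 6 probes, and only this one was far above background. Those with 118 and 117 in BM 1st cells read 122 and 124 in BM 2nd cells and were not above background in parental cells, and the remaining 3 were not above background on any array. Averaged over all 6 probes the log2 ratio was 0.54 in BM 1st over parental cells and 0.36 in BM 2nd over parental cells, which ends both calls, so the result rests on 1 probe. Averaged over probes above background it was 1.00, at the threshold, in BM 1st over parental cells and 0.73 in BM 2nd over parental cells. With background subtracted the ratios were 3.87 and 2.71 in the same order. Several Nrp2 transcripts are known, and which of them each probe reads was not tested.

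Counted over the set, 7 of the 10 genes could be compared between BM 2nd and parental cells. Of these, Ptn, Fgf10, Pdgfra, Nrp1 and Nrp2 were called higher and none lower, beside 1.83% of all 10576 genes called higher and 1.53% called lower. Between BM 1st and parental cells, Ptn, Fgf10, Pdgfra and Nrp2 were called higher and Fgf7 lower, beside 2.04% of 10370 genes called higher and 1.79% called lower. Between BM 2nd and BM 1st cells, Ptn was called higher and none lower, beside 3.01% of 10551 genes called higher and 1.78% called lower. Over all 10 genes the median log2 ratio was 0.81 for BM 2nd over parental, 0.37 for BM 1st over parental and 0.16 for BM 2nd over BM 1st, beside -0.00, -0.00 and -0.01 over all 19057 genes. The set was drawn up with these ratios in view, so the counts describe it and nothing is read from their size. All 3 comparisons share arrays, so they are not independent of each other.

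**Figure D2:**
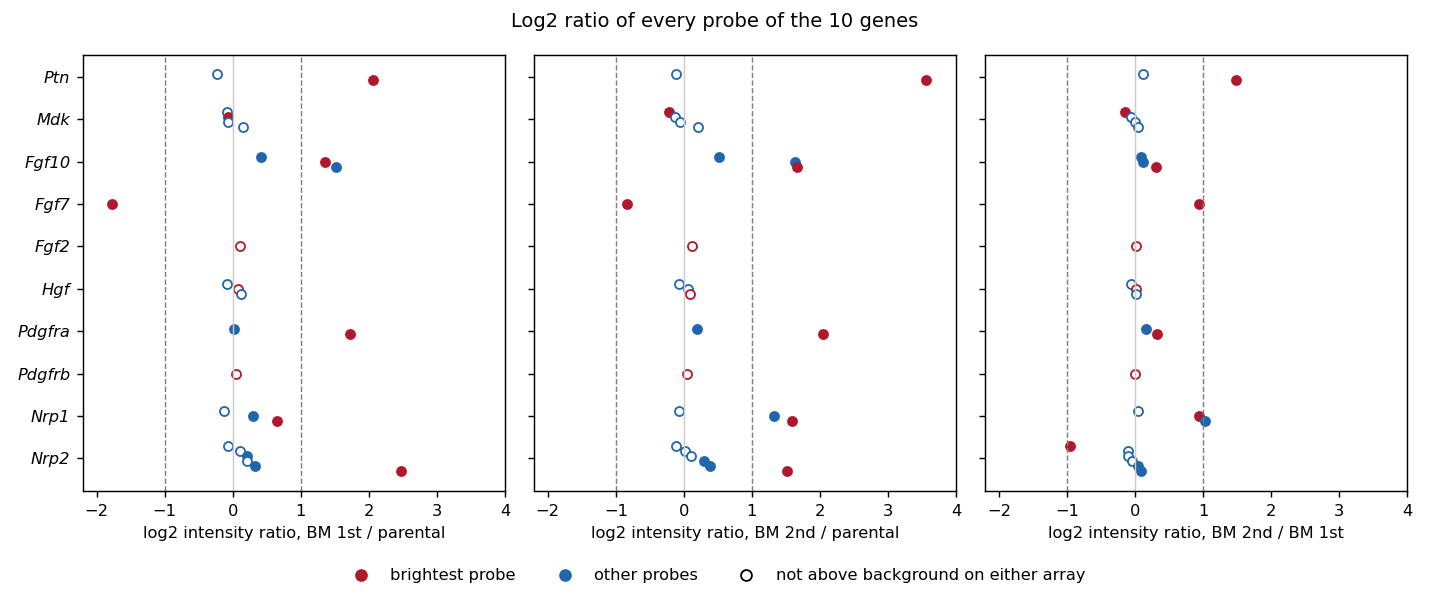
Log2 intensity ratio (horizontal axis) of each of the 26 probes of the 10 genes (rows) for BM 1st over parental, BM 2nd over parental and BM 2nd over BM 1st cells, 1 array per line, with dashed lines at 1 and -1. Open points were not above background on either array. Ptn, Pdgfra and Nrp2 have 1 probe past the line and the others near 0, while 2 probes each of Fgf10 and Nrp1 lie past it in BM 2nd over parental cells. The brightest probe of each gene is red and the others are blue.

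The known partners of these genes were read in lists of their own, and their calls stand beside the shares of all genes given above. Of 9 receptor genes of pleiotrophin and midkine, 6 could be compared between BM 2nd and parental cells and 7 in each comparison with BM 1st cells, and none was called in either direction. Their median log2 ratio was 0.01 in BM 2nd over parental cells, beside 0.01 over all genes, and 0.21 in BM 1st over parental cells, beside -0.01. Ptprz1 was not above background on any array, at 89.4 (parental), 99.9 (BM 1st) and 93.8 (BM 2nd). Alk lay at background, at 111 (parental), 111 (BM 1st) and 102 (BM 2nd). Of the syndecan genes, whose products carry heparan sulphate, Sdc4 and Sdc2 were the brightest and Sdc3 was above background in BM 1st cells only, at 115. Sdc4 had 1608 (parental), 1475 (BM 1st) and 1616 (BM 2nd). Sdc2 had 1096 (parental), 1421 (BM 1st) and 1952 (BM 2nd), a log2 ratio of 0.83 in BM 2nd over parental cells.

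Of 7 FGF receptor and co-receptor genes, 4 could be compared between BM 2nd and parental cells and none was called. Fgfr2, the receptor gene for the ligands of Fgf7 and Fgf10, was not above background on any array by any of its 4 probes, and the brightest gave 98.4 (parental), 94.6 (BM 1st) and 99.9 (BM 2nd). Fgfr1, the receptor gene of mesenchymal cells, had 276 (parental), 486 (BM 1st) and 482 (BM 2nd), with log2 ratios of 0.80 for BM 2nd over parental and 0.82 for BM 1st over parental. Fgfrl1, which encodes a receptor without a kinase domain, was highest in BM 1st cells, at 227 (parental), 464 (BM 1st) and 212 (BM 2nd). It was called higher for BM 1st over parental (log2 ratio 1.03) and lower for BM 2nd over BM 1st (log2 ratio -1.13).

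Of 19 other genes of the FGF family, 4 could be compared between BM 2nd and parental cells, and Fgf21 alone was called. Fgf21, an endocrine FGF gene that cell stress induces, had 332 (parental), 1251 (BM 1st) and 117 (BM 2nd). It was the highest in BM 1st cells and lowest in BM 2nd cells, with log2 ratios of 1.91 for BM 1st over parental, -1.50 for BM 2nd over parental and -3.42 for BM 2nd over BM 1st. Among 14 feedback targets of FGF and ERK signalling with a probe, 12 could be compared between BM 2nd and parental cells, and 1 was higher and none lower, beside 1.83% and 1.53% of all genes, with a median log2 ratio of -0.00. The one called was Spry3, with 204 in BM 2nd cells against 100.2, under background, in parental cells, a difference of at least 1.86-fold. Dusp6, the ERK phosphatase gene, was bright in every line, at 6839 (parental), 6411 (BM 1st) and 5528 (BM 2nd). Dusp4, which encodes a nuclear phosphatase of this pathway, peaked in BM 1st cells, at 1311 (parental), 5902 (BM 1st) and 1799 (BM 2nd), a log2 ratio of 2.17 for BM 1st over parental, where it was the only call among 11 targets compared. For BM 2nd over BM 1st, 2 of 12 targets were called lower and none higher, beside 1.78% and 3.01% of all genes, Dusp4 at a log2 ratio of -1.71 and Dusp5 at -1.10. None of the ETS genes of the list was called, and they did not run one way, with log2 ratios for BM 2nd over parental of -0.58 each for Etv4 and Etv5 and 0.87 for Etv1.

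Met, the HGF receptor gene, was dim, at 102 (parental), 156 (BM 1st) and 135 (BM 2nd). Parental cells were not above background, and the bounds for Met were 1.42-fold higher in BM 1st and 1.23-fold higher in BM 2nd. These bounds take no account of noise. Receptor probes reached absolute log2 ratios of 0.48 for BM 1st over parental and 0.34 for BM 2nd over parental. Of the 8 genes of the HGF list, 2 could be compared between BM 2nd and parental cells. In each comparison with BM 1st cells 3 could, and none was called in any comparison. Among 5 genes of the PDGF ligand list Pdgfa, the main ligand of the receptor of Pdgfra, was called higher for BM 1st over parental. It had 859 (parental), 2061 (BM 1st) and 1202 (BM 2nd), log2 ratios of 1.26 for BM 1st over parental and 0.48 for BM 2nd over parental. Pdgfc had 233 (parental), 351 (BM 1st) and 223 (BM 2nd) and was not called. Pdgfb and Pdgfd were not above background on any array.

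Of 12 neuropilin ligand genes, 9 could be compared in each comparison. Vegfd, a lymphatic growth factor gene, was called higher in BM 2nd cells, with 166 (parental), 150 (BM 1st) and 503 (BM 2nd) and log2 ratios of 1.60 for BM 2nd over parental and 1.75 for BM 2nd over BM 1st. Sema3f, whose product binds neuropilin 2, had 582 (parental), 225 (BM 1st) and 662 (BM 2nd). It was lowest in BM 1st cells, where the brightest Nrp2 probe was highest, with log2 ratios of -1.37 for BM 1st over parental and 1.56 for BM 2nd over BM 1st. Vegfa had 3032 (parental), 3494 (BM 1st) and 2012 (BM 2nd), and Vegfb 3615 (parental), 4132 (BM 1st) and 3769.7 (BM 2nd), and neither was called. Vegfc had 215 (parental), 260.0 (BM 1st) and 386 (BM 2nd), a log2 ratio of 0.84 in BM 2nd over parental cells.

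Of 9 co-receptor and adaptor genes, 5 could be compared and none was called in any comparison. Plxnd1, a plexin gene, had 490.3 (parental), 887 (BM 1st) and 750.4 (BM 2nd), with a log2 ratio of 0.86 for BM 1st over parental. Flt1, a VEGF receptor gene, had 307 (parental), 346 (BM 1st) and 441 (BM 2nd).

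**Figure D3:**
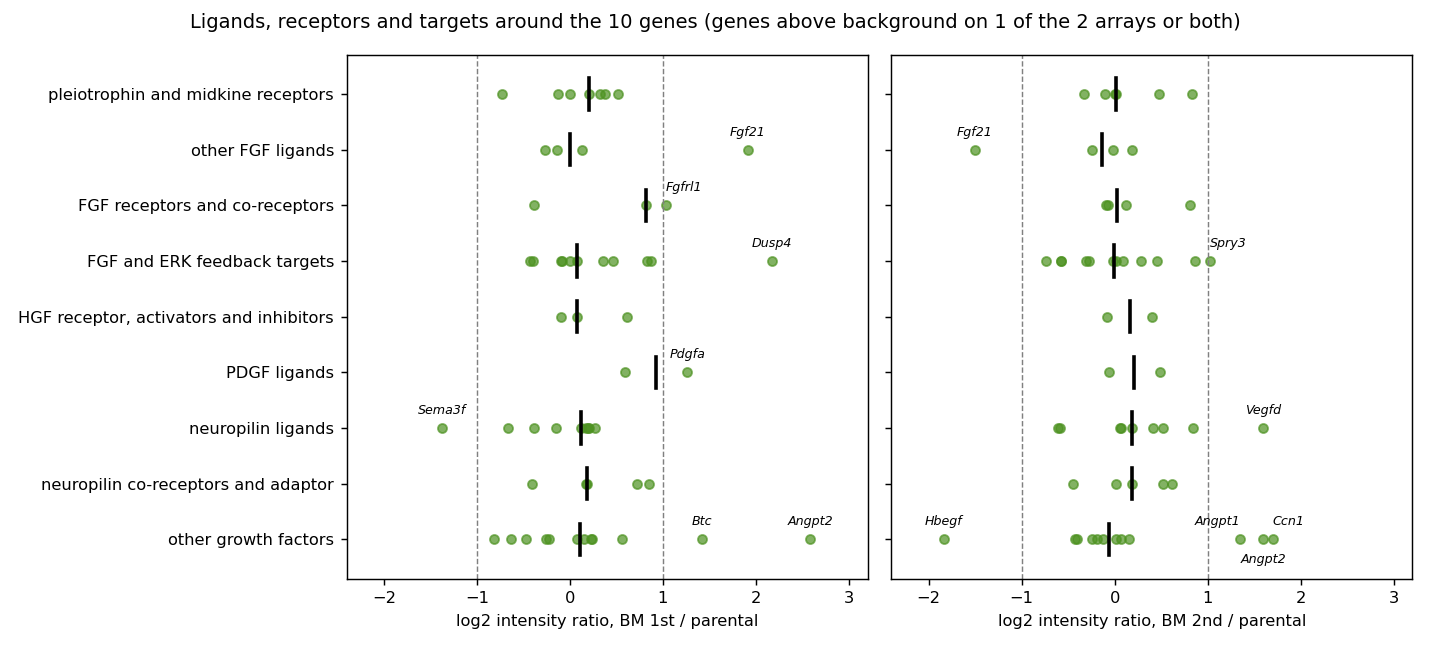
Log2 intensity ratio (horizontal axis) of genes in 9 lists around the 10 genes (rows), for BM 1st over parental cells on the left and BM 2nd over parental cells on the right, 1 array per line. Points are genes detected over background in either line or both, bars are list medians, and dashed lines mark 1 and -1; the genes past a line are named, and no receptor gene of pleiotrophin and midkine is among them.

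Among 14 other growth factor genes with a probe, 12 could be compared between BM 2nd and parental cells, and 3 were higher and 1 lower, beside 1.83% and 1.53% of all genes, with a median log2 ratio of -0.06. Angpt2, the gene of an angiopoietin that antagonises the receptor Tie2, had its peak in BM 1st cells as the brightest Nrp2 probe did. It had 248 (parental), 1489 (BM 1st) and 751 (BM 2nd) and a log2 ratio of 1.60 for BM 2nd over parental. Ccn1, the gene of a matricellular protein, had 545 (parental), 352 (BM 1st) and 1768 (BM 2nd) and a ratio of 1.70 for BM 2nd over parental. Angpt1 was above background in BM 2nd cells only, and was at least 2.20-fold higher there than in parental cells. Hbegf, an EGF receptor ligand gene, was lower at each step, with 1031 (parental), 585 (BM 1st) and 288 (BM 2nd), and was called lower for BM 2nd over parental (log2 ratio -1.84). Btc, of the same family, had 150 (parental), 401 (BM 1st) and 127 (BM 2nd), and with Angpt2 it was one of 2 genes of 12 called higher for BM 1st over parental, beside 2.04% of all genes, at log2 ratios of 1.42 for Btc and 2.59 for Angpt2.

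Some markers of other cell types moved with several of these genes. Of 12 markers of fibroblasts and marrow stroma, 6 were above background in the parental line, 7 in BM 1st and 9 in BM 2nd. Their summed intensity was 3302 (parental), 10220.5 (BM 1st) and 17682 (BM 2nd), an order shared by Ptn, Fgf10, Pdgfra and Nrp1. Dcn and Lum made up most of this sum in both selected lines. Dcn had 1027 (parental), 6259 (BM 1st) and 6174 (BM 2nd). Lum had 198 (parental), 1742 (BM 1st) and 6133 (BM 2nd). Not every marker shared the order of the sum. Pdpn had its peak in the first generation, at 108 (parental), 215 (BM 1st) and 125 (BM 2nd). Cxcl12, Lepr and Col1a2 stayed near background on every array. Between BM 2nd and parental cells 4 of 10 markers of this list were called higher, Lum, Dpt, Dcn and Col1a1, beside 1.83% of all genes. For BM 2nd over BM 1st, 4 of 9 were called higher, Lum, Dpt, Col1a1 and Col3a1, beside 3.01% of all genes, and Col3a1 had 1107 (parental), 833 (BM 1st) and 1946 (BM 2nd). Lum is the gene that the study chose from these arrays, and the study also lists Dpt and Dcn as raised on them. None of these genes is independent evidence of their direction. The whole list was chosen with earlier results of these data known, so its calls are a description. Thy1 and Postn were not above background on any array. Of 8 leukocyte markers with a probe, 0 were above background in the parental line, 5 in BM 1st and 3 in BM 2nd. Their summed intensities were 765 (parental), 2239 (BM 1st) and 1145 (BM 2nd), and the lines stood in the same order for the brightest Nrp2 probe. For BM 1st over parental 3 of 5 were called higher, beside 2.04% of all genes, namely the lysozyme gene Lyz2 by at least 9.84-fold, Laptm5 by at least 3.35-fold and Fcer1g by at least 2.33-fold. Lyz2 had 79.5 (parental), 1078 (BM 1st) and 365 (BM 2nd), the largest part of the list's summed intensity in both selected lines. Ptprc, the general leukocyte marker, lay at background, at 102 (parental), 111 (BM 1st) and 104 (BM 2nd). For BM 2nd over parental Lyz2 and Laptm5 were called higher, 2 of 3 beside 1.83% of all genes, by at least 3.33-fold for Lyz2 and 1.68-fold for Laptm5, and for BM 2nd over BM 1st both were called lower, 2 of 5 beside 1.78%, Lyz2 at a log2 ratio of -1.56 and Laptm5 at the threshold. Tyrobp, Itgam and Cd3e were not above background on any array. Of 8 markers of pericytes and smooth muscle, 5 could be compared between BM 2nd and parental cells. Acta2 alone was called higher there, beside 1.83% of all genes. For BM 2nd over BM 1st it was again the only call among 5, beside 3.01% of all genes. For BM 1st over parental none of 3 was called. Acta2 had 126 (parental), 139 (BM 1st) and 1128 (BM 2nd), while Rgs5 and Myh11 were not above background on any array. Of 7 endothelial markers none was above background in either selected line, and Pecam1, Cdh5 and Emcn were not above it on any array. Of 5 osteoblast markers with a probe, 2 were above background in the parental line, 1 in BM 1st and 2 in BM 2nd, with summed intensities of 538 (parental), 521 (BM 1st) and 618 (BM 2nd). Sp7 was above background in BM 2nd cells only, at 197 against 103 in parental cells, a bound of 1.80-fold, and was not called. Bglap and Dmp1 were not above background on any array. The part of other cell types in the levels of the growth factor and receptor genes was not tested. As for the label of a lung carcinoma, Krt8, Krt18 and Cdh1 were above background on every array. Epcam, Nkx2-1, Sftpc, Sftpb and Scgb1a1 were not above it on any. For BM 2nd over BM 1st, 1 of 3 was called higher, beside 3.01% of all genes, Krt8 at a log2 ratio of 1.33. In that comparison Krt18 ran the other way, at -0.84, and Cdh1, near background, had 0.10.

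**Figure D4:**
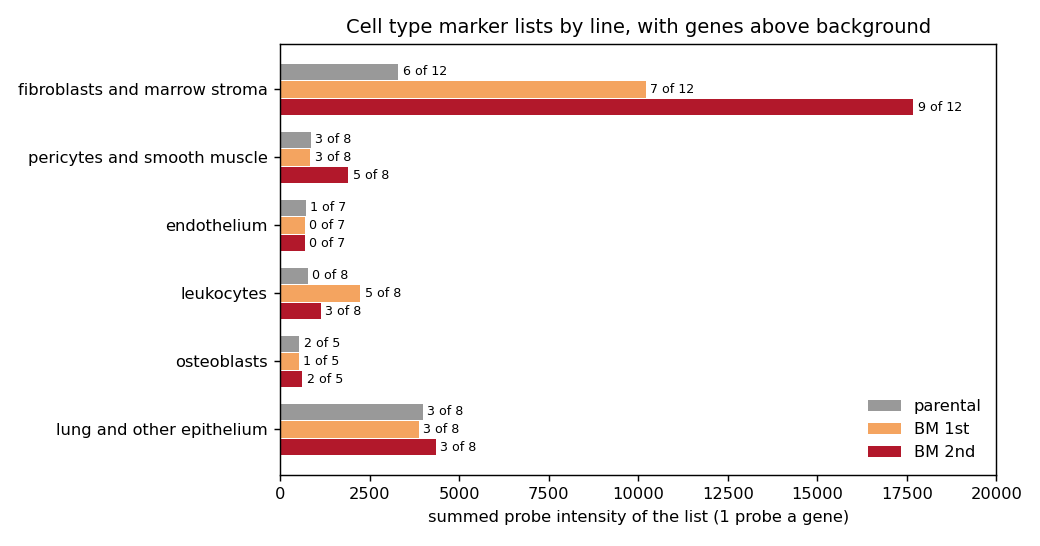
Summed probe intensity (horizontal axis) of 6 lists of cell type markers (rows) in the parental, BM 1st and BM 2nd lines (1 array per line), with the number of genes above background beside each bar. The fibroblast and marrow stroma list reaches 17682 in BM 2nd cells, the leukocyte list peaks at 2239 in the BM 1st line, and the endothelial list has no gene above background in either selected line.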

How the data were processed

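Gene expression was measured on 3 Illumina mouse bead arrays, 1 per cell line, grouped by the cell subtype label. The authors deposited linear probe intensities, and the submitters' processing notes name GenomeStudio 2011.1. How they were normalized is not stated in the sources read. Ranked values of any rank agreed between the arrays to within 0.274, as quantile normalization leaves them, and the lowest was 60.2, so background had not been subtracted.

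Probe names came from the platform annotation, updated through RefSeq (GRCm38.p6). Of 45281 probes, 34885 had 1 gene, 18 several and 10378 none. Each gene took its brightest probe by mean log2 intensity over the arrays. With 1 array per line no test was possible, and calls were made past a log2 ratio of 1 or -1. Where one array was under background, a bound was given, dividing the bright intensity by the dim one or by background, whichever was larger. Bounds take no account of noise between arrays. Simulated data were used to test how calls are counted. Python 3.11.15, numpy 2.4.6, pandas 2.3.3 and matplotlib 3.10.9 were used.

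The 10 members and all lists were chosen with earlier results of these data known. All members were named with their probes, then the genes of each list past the threshold, up to 6, and up to 2 more of the highest intensity, and the 3 genes nearest in pattern to each of 4 members. Other partners (Ptprz1, Alk, Fgfr2, Etv1, Etv4, Etv5, Sdc3, Pdgfb, Pdgfd, Vegfc and Flt1) were named after their values were seen. So were other markers (Pdpn, Cxcl12, Lepr, Col1a2 and undetected markers). Alternatives varied the choice of probe, background filter and level, centring, background subtraction and threshold. RT-PCR, Western blot and animal data were not used here.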

Additional observations from a re-analysis of the deposited data

How the results depend on the processing

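With all probes of a gene averaged, which brings dim probes into the mean, members called higher numbered 3 in place of 5 for BM 2nd over parental, 1 in place of 4 for BM 1st over parental and 0 in place of 1 for BM 2nd over BM 1st. Averaging only probes above background gave 4, 3 and 1 in that order. With background subtracted, 1 member (Mdk) was lower for BM 2nd over parental, and for BM 2nd over BM 1st 3 were higher (Ptn, Nrp1 at 1.26 and Fgf7 at 1.23) and 1 lower (Nrp2 at -1.15). At a threshold of 0.5 these counts were also 1 (Fgf7 at -0.84, in place of Mdk), 3 and 1. At 1.5 no member was higher for BM 2nd over BM 1st (0). The other 50 counts stayed within 1.5 times their main value, and no ratio of a member reversed. Of 84 alternative ratios of single members, 41 moved by more than the SD of the receptor probes. Over all genes, in the order higher then lower for BM 2nd over parental (194 and 162), BM 1st over parental (212 and 186) and BM 2nd over BM 1st (318 and 188), background subtraction gave 842, 675, 849, 832, 1057 and 794 calls. A threshold of 0.5 gave 955, 885, 877, 911, 1148 and 999, a threshold of 1.5 gave 78, 35, 95, 59, 136 and 43, and averaging all probes gave 109, 101, 137, 108, 192 and 126. Centring subtracted medians of -0.02, -0.01 and -0.04 (BM 2nd over parental, BM 1st over parental, BM 2nd over BM 1st), which raised each member's ratio slightly. Low signal over background limits Mdk, Fgf2, Hgf, Pdgfrb and Met. No paired analysis was possible because there is 1 array per line.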

Other observations

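Genes whose pair of log2 ratios (BM 1st over parental, BM 2nd over parental) lay nearest to that of a member are given by their distance on the log2 scale, over 3 arrays. They are a description of these arrays. Nearest to Ptn were the matrix genes Bgn at a distance of 0.46 and Dpt at 0.65, and the glycolysis gene Aldoc at 0.75. Bgn, a proteoglycan gene, had 126 (parental), 654 (BM 1st) and 1168 (BM 2nd), and like Ptn it increased at each step. Nearest to Fgf10 were Renbp at 0.18, Adm, the gene of the vasodilator peptide adrenomedullin, at 0.25, and Il33, a cytokine gene of stromal and epithelial cells, at 0.27. Adm had 147 (parental), 414 (BM 1st) and 401 (BM 2nd). Nearest to Pdgfra were Tshz1 at 0.06, Clec2d at 0.11 and Synpo, an actin-binding protein gene, at 0.20. Tshz1, a zinc finger gene, had 428 (parental), 1362 (BM 1st) and 1733 (BM 2nd), log2 ratios of 1.67 and 2.02 over parental for BM 1st and BM 2nd cells. Nearest to Nrp1 were Mrgprf at 0.12, Hspa2, a heat shock protein gene, at 0.14 and Rrad at 0.17. Aldoc, Renbp, Il33 and Mrgprf were not above background in parental cells, so their ratios over parental, and the distances built on them, are limited by background. Hspa2 had 301 (parental), 503 (BM 1st) and 843 (BM 2nd).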
